A study of Mus musculus with 2 samples.

Results

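C-type lectin receptors of the Clec and Cd209 gene families were described across the cells of the inflamed mouse peritoneum. The members were the genes whose symbol begins with Clec and a digit, or with Cd209. They were 36 of the 31053 genes in the deposited matrices, and Clec7a and Clec4n, which the rule leaves out, are not analysed here. Total peritoneal cells were sequenced 3 days after zymosan at 1 mg per animal was given to mice aged 10 to 14 weeks. The Cd36-/- library came from a pool of 4 replicates with LysM-Cre and floxed Cd36, and the fl/fl library from a pool of 4 with floxed Cd36 and no Cre in its strain label. Cd36 is a scavenger receptor for lipids and dying cells, zymosan is a yeast cell wall preparation, and LysM-Cre is active in macrophages, monocytes and neutrophils. With 1 pooled library per genotype there was no spread between animals and no test was possible, Cre and Cd36 loss cannot be told apart, and all intervals are at 95% and cover counting error only.

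C-type lectin receptors bind sugars, lipids or proteins on microbes and damaged cells through a shared extracellular fold. Clec4d, Clec4e and Clec4b1 signal through the adaptor Fcer1g to the kinase Syk and the adaptor Card9, which switches on inflammatory genes, whereas Clec4a2, Clec4a4 and Clec12a carry an inhibitory tyrosine motif that recruits phosphatases. In the peritoneal cavity Cd209b is known as a receptor of resident macrophages for yeast and bacterial polysaccharides, and Cd209a and Clec10a are used as markers of dendritic cells and of some macrophages. The Clec2 proteins are ligands of Klrb1 receptors on NK cells.

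After filtering and removal of doublets 14966 Cd36-/- cells and 13965 fl/fl cells were used, with a median of 6562 and 6892 UMIs (unique transcript counts) per cell. Cells were clustered without the members, Clec7a or Clec4n, and clusters were named from markers that hold no member. Each name means "like". Macrophages made up 65.2% of Cd36-/- cells and 55.6% of fl/fl cells. They were split into large peritoneal macrophages (LPM, with Gata6), a Folr2, an Arg1, a Ccr2, a Retnla and a cycling class, each named for its leading markers. The other classes were conventional dendritic cells of type 2 (cDC2) and type 1 (cDC1), neutrophils, B-1, B-2, T, NK and stromal cells. The cDC1 class had 39 Cd36-/- and 34 fl/fl cells, and the stromal class 31 and 30. Levels are in CPM, the UMIs of a gene with the UMIs of each class and library scaled to the same total. Cd36 itself was at 172 CPM (169 to 175) in Cd36-/- macrophages, against 242 CPM (239 to 246) in fl/fl macrophages, and it was lower in the Cd36-/- library in all 6 macrophage classes. The labels do not say which exons were floxed, and transcripts counted at their 3′ end can lie outside the deleted exons, so that this level is no full check of the label. B cells had 32.9 CPM of Cd36 in the Cd36-/- library and 31.4 CPM in the fl/fl library.

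Most members lie in 3 clusters of neighbouring genes (mm10 coordinates, GENCODE M21). The Clec4 array held 8 members between bases 122921848 and 123289870 of chromosome 6, among them Clec4d (chr6:123262111-123275265) and Clec4e (chr6:123281789-123289870). The NK gene complex held 10 members from 128662385 to 129452000 on the same chromosome, with Clec2d, Clec2e, Clec2g, Clec2h and Clec2i, Clec12a, Clec1b and Clec9a. The Cd209 array held 8 members, Clec4g included, from 3707064 to 4137707 on chromosome 8. The remaining 10 members are scattered, such as Clec10a on chromosome 11 and Clec5a at chr6:40574894-40585821.

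The 250 bases before the RefSeq start site are printed for 5 members whose levels carry the comparisons that follow: Clec4d and Clec4e, high in neutrophils and macrophages, Clec12a, which stood apart between the libraries, and Cd209b and Clec1b, detected mostly in LPM. They are RefSeq sequences of GRCm38.p6, given 5′ to 3′ on the strand of the gene, and capitals mark matches to GAGGAA (the core bound by the myeloid factor PU.1) and TTGCNNAA (the core bound by C/EBP factors) on either strand.
Clec4d: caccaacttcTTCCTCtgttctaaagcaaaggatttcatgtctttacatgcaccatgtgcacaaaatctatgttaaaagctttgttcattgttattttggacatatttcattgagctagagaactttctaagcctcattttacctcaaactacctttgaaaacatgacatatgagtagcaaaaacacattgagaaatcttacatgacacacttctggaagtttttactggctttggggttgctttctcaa
Clec4e: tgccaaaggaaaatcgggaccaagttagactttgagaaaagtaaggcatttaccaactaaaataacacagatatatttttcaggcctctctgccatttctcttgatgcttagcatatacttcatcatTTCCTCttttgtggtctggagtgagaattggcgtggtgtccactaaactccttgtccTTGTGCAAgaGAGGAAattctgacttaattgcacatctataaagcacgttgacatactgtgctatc
Clec12a: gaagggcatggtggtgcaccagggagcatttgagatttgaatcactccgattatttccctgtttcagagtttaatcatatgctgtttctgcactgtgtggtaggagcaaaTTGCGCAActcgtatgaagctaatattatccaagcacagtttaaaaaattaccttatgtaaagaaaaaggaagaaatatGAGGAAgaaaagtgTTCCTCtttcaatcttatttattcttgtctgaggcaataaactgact
Cd209b: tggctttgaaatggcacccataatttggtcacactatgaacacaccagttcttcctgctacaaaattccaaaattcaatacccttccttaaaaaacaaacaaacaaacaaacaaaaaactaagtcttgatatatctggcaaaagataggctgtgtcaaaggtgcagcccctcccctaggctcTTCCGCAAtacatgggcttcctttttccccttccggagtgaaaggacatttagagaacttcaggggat
Clec1b: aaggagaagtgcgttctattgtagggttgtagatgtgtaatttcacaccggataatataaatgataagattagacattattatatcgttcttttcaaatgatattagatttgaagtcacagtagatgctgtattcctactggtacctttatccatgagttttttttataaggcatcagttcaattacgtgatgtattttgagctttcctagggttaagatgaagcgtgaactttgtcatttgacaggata
The Clec4d window (chr6:123261857-123262106, plus strand) held 1 GAGGAA match 240 bases before the start. The Clec4e window (chr6:123289872-123290121, minus strand) held GAGGAA matches at 123 and 56 bases and a TTGCNNAA match at 66 bases before it. In the Clec12a window (chr6:129349994-129350243, plus strand) GAGGAA matched at 61 and 47 bases, and a palindromic TTGCNNAA match lay at 140 bases. That window lies inside the gene as placed by GENCODE M21 (chr6:129342691-129365303), whose start is upstream of the RefSeq start. The Cd209b window (chr8:3926842-3927091, minus strand) held 1 TTGCNNAA match at 68 bases, and the Clec1b window (chr6:129397047-129397296, plus strand) held neither motif. Of the 31 members with a matched promoter, 13 held GAGGAA, which 23.1% of 27025 promoters of the same length held, and 5 held TTGCNNAA, which 9.55% held. AGATAA, the core bound by GATA factors, was in 1 of the 31 and in 10.3% of all promoters. These matches describe letters and are not binding sites.

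At 20 CPM in at least 1 class, 16 of the 36 members were counted as expressed, 15 had UMIs but stayed below that level, and Clec4f, Clec4b2, Clec2e, Clec3a and Clec18a had no UMI in any barcode of either library. With macrophages and B cells split into their classes, the class with the highest level was the same in both libraries for 14 of the 16. The exceptions were Clec4b1, highest in Retnla macrophages in Cd36-/- and in cDC2 in fl/fl, and Clec2d, highest in T cells in Cd36-/- and in NK cells in fl/fl.

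**Figure D1:**
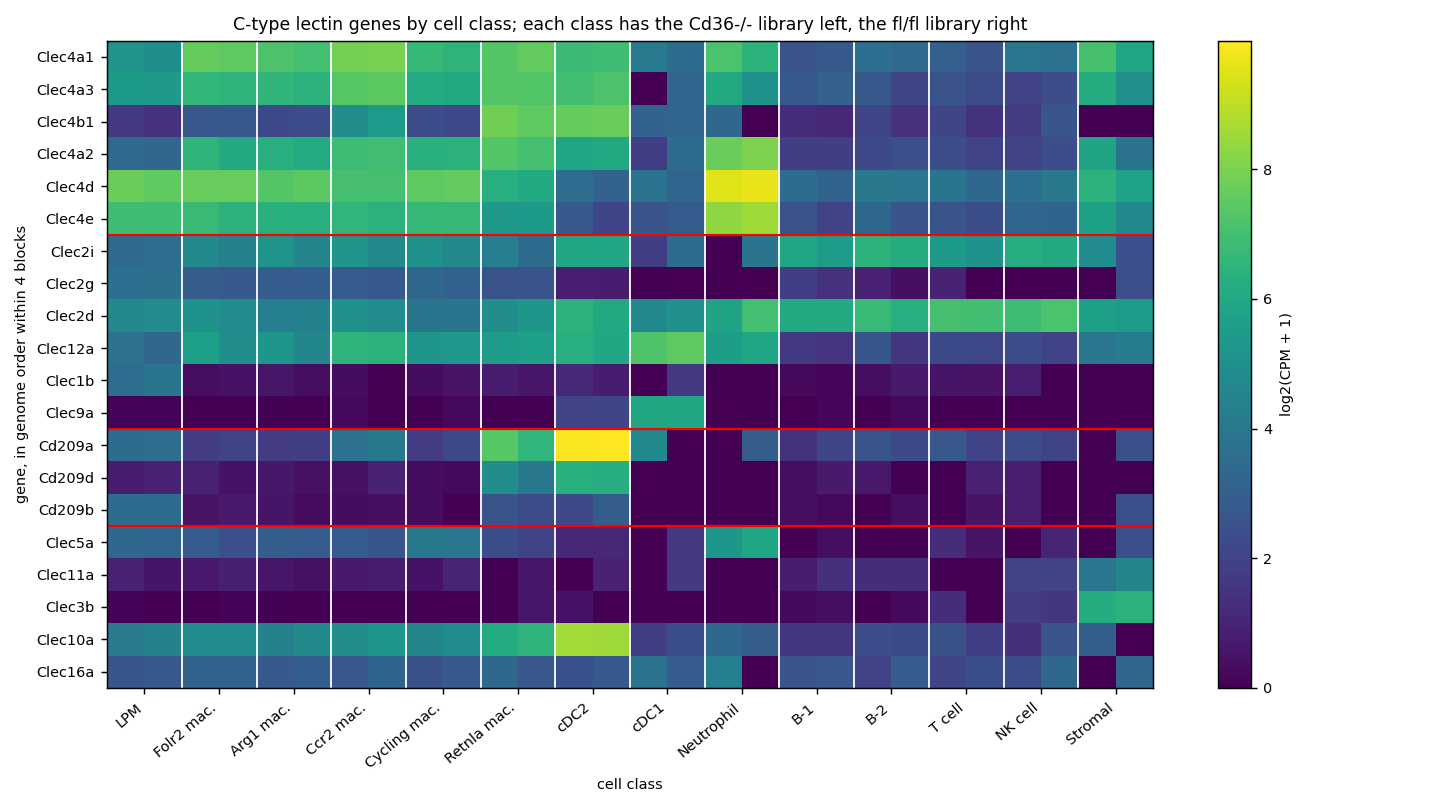
Level of 20 members (rows) in 14 cell classes (columns, Cd36-/- on the left and fl/fl on the right of each pair) as log2(CPM + 1); red lines separate the Clec4 array, the NK gene complex, the Cd209 array and genes elsewhere. Brighter cells are higher: Clec4d and Clec4e are brightest in neutrophils, and Cd209a, Cd209d and Clec10a in cDC2, in both libraries.

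Clec4d and Clec4e, the activating pair known as MCL and Mincle that senses mycobacterial glycolipid and dead cells, were highest in neutrophils, ahead of all 6 macrophage classes. Clec4d was at 716 CPM (564 to 896, 76 UMIs) in Cd36-/- neutrophils, against 813 CPM (675 to 970, 123 UMIs) in fl/fl neutrophils. In LPM it was at 216 CPM (210 to 221) in Cd36-/- and 186 CPM (181 to 191) in fl/fl. The Folr2 class had 199 and 202 CPM, the cycling class 182 and 189, the Arg1 class 160 and 176 and the Ccr2 class 132 and 129, each with Cd36-/- before fl/fl. Among macrophages the Retnla class stood lowest, with 75.1 CPM in Cd36-/- and 68.1 CPM in fl/fl. Dendritic cells and lymphocytes had little Clec4d: cDC2 had 10.8 CPM in Cd36-/- and 7.70 CPM in fl/fl, and B cells 11.5 and 9.62 CPM. Free RNA can add a low level to every class, and it was estimated at 7.86% of B cell UMIs in Cd36-/- and 6.79% in fl/fl. Cells were also thinned to 1000 UMIs, which kept 3697 of 3723 Cd36-/- and 2982 of 3006 fl/fl LPM and 2886 of 2922 and 4176 of 4226 B cells. A Clec4d UMI was then seen in 19.3% of Cd36-/- LPM and 17.3% of fl/fl LPM, against 1.56% of Cd36-/- and 1.36% of fl/fl B cells (unthinned, 69.9% and 66.8% of LPM and 4.96% and 5.06% of B cells, at medians of 7048 and 7664 UMIs per LPM and 3646 and 4281 UMIs per B cell). The share in LPM was thus far above that in B cells in both libraries.

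Clec4e was likewise highest in neutrophils, and next in LPM, in both libraries. It was at 320 CPM (222 to 448, 34 UMIs) in Cd36-/- neutrophils and 377 CPM (285 to 488, 57 UMIs) in fl/fl neutrophils. LPM had 117 CPM (113 to 121) in Cd36-/- and 116 CPM (112 to 121) in fl/fl. The other macrophage classes lay between 39.7 and 108 CPM in Cd36-/- and between 42.4 and 98.2 CPM in fl/fl, again with the Retnla class lowest, and cDC2 had 5.98 and 3.23 CPM. Neutrophils were shallow, with a median of 719 UMIs in Cd36-/- and 909 in fl/fl and an estimated 32.3% and 26.3% of free RNA. Their summed macrophage markers (8 listed) were at 2788 and 2319 CPM, under the 6733 and 6243 CPM of the macrophages. The part of free RNA and macrophage RNA in the neutrophil levels was not tested. Clec5a, an activating receptor that pairs with the adaptor Tyrobp, was also highest in neutrophils, at 37.7 CPM on 4 UMIs in Cd36-/- and 59.5 CPM on 9 UMIs in fl/fl, followed by cycling macrophages at 15.2 and 14.2 CPM. In thinned counts a Clec4d UMI was little more frequent in LPM with a Clec4e UMI than in LPM without. It was in 22.4% of Cd36-/- LPM with a Clec4e UMI and 19% of those without, and in 17.6% and 17.3% of fl/fl LPM.

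Clec4a1, Clec4a2 and Clec4a3, of the dendritic cell immunoreceptor group, had the opposite distribution within macrophages, with LPM lowest of the 6 macrophage classes in both libraries. Clec4a1 was at 34.9 CPM (32.7 to 37.1) in Cd36-/- LPM and 30.8 CPM (28.7 to 33) in fl/fl LPM, against 240 CPM (231 to 249) in Cd36-/- and 250 CPM (240 to 260) in fl/fl Ccr2 macrophages. Between these ends came the Folr2 class with 199 and 182 CPM, the Retnla class with 157 and 193 CPM, the Arg1 class with 144 and 127 CPM and the cycling class with 101 and 89.1 CPM. cDC2 had 110 CPM in Cd36-/- and 117 CPM in fl/fl, neutrophils had 141 CPM on 15 UMIs and 85.9 CPM on 13 UMIs, and B, T and NK cells stayed at or under 14.0 CPM. Clec4a2, an inhibitory receptor, was at 9.85 CPM in Cd36-/- LPM and 8.74 CPM in fl/fl LPM, and at 158 (138 to 180) and 130 CPM (114 to 146) in Retnla macrophages. Neutrophils had more of it than any macrophage class, with 207 CPM (130 to 314, 22 UMIs) in Cd36-/- and 264 CPM (189 to 360, 40 UMIs) in fl/fl. The intervals of neutrophils and Retnla macrophages overlapped in Cd36-/- and did not in fl/fl. Clec4a3 was highest in Ccr2 macrophages (162 CPM in Cd36-/-, 176 CPM in fl/fl) and Retnla macrophages (159 and 152 CPM), whose intervals overlapped in both libraries, and lowest of the macrophages in LPM (42.6 and 39.7 CPM). Of the last 500 bases of the Clec4a2 transcripts 14.0% of 31-base words occur in another gene, mostly Clec4b1, so that their counts are uncertain to that degree.

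**Figure D2:**
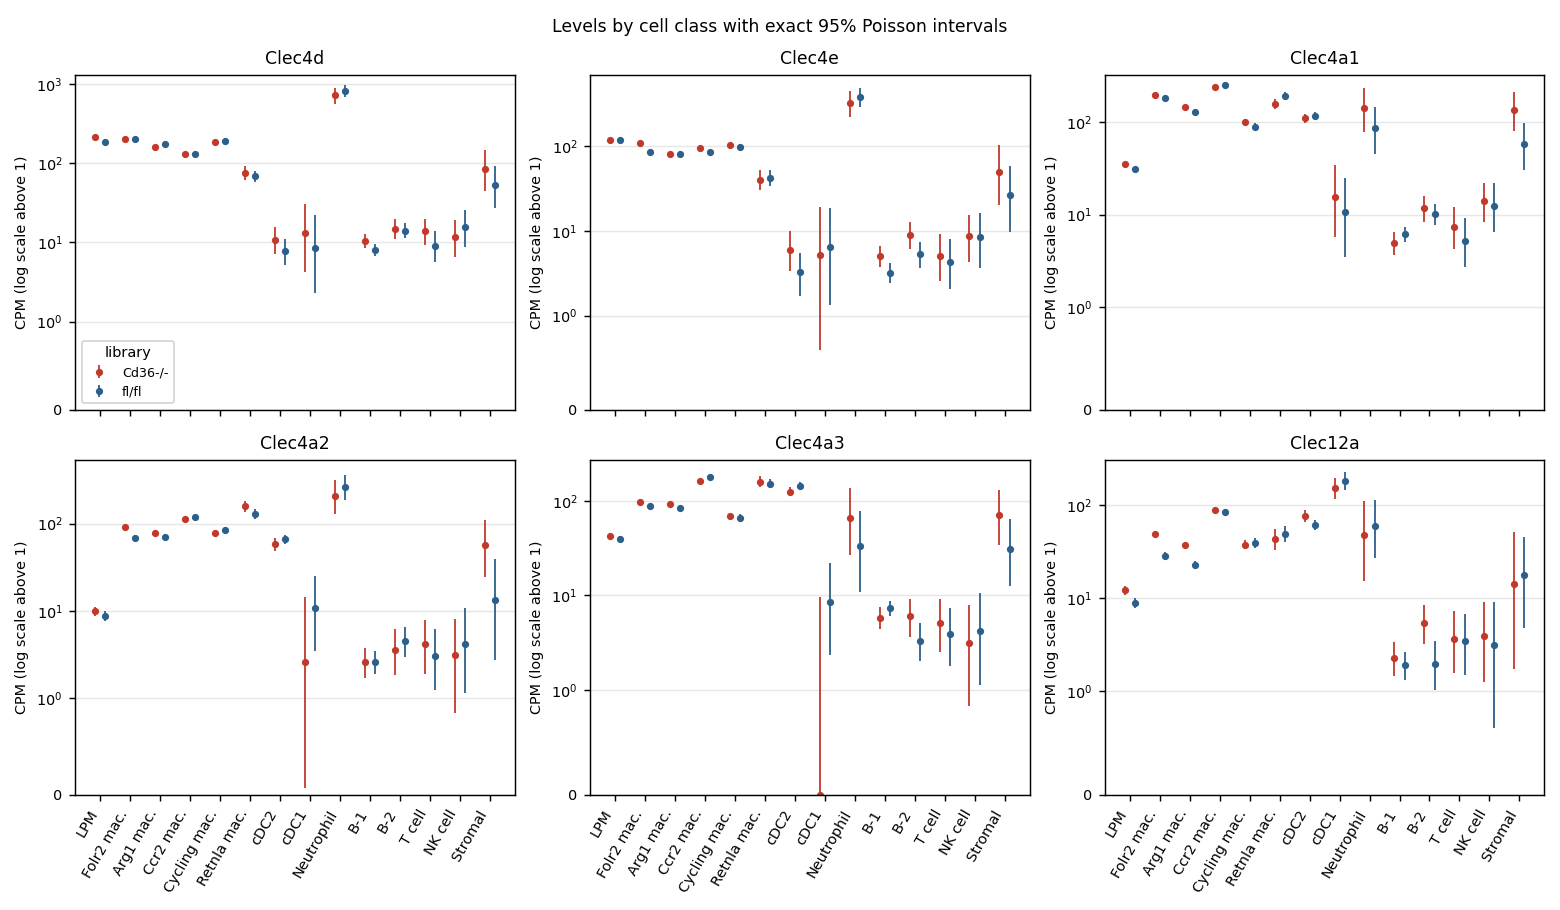
CPM (axis linear below 1 and logarithmic above) of Clec4d, Clec4e, Clec4a1, Clec4a2, Clec4a3 and Clec12a in each cell class, with Cd36-/- in red on the left and fl/fl in blue on the right; bars are exact 95% Poisson intervals of the UMI sum of 1 library. Clec4d peaks at 716 and 813 CPM in neutrophils, Clec4a1 at 240 and 250 CPM in Ccr2 macrophages, and Clec12a at 151 and 181 CPM in cDC1.

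Dendritic cells of type 2 carried the highest levels of Cd209a, Cd209d and Clec10a. Cd209a, the mouse gene named DC-SIGN, was at 958 CPM (921 to 998, 2404 UMIs) in Cd36-/- cDC2, against 1012 CPM (981 to 1044, 4074 UMIs) in fl/fl cDC2. A Cd209a UMI was found in 83.6% of Cd36-/- cDC2 and 84.1% of fl/fl cDC2, and in 1.16% and 1.66% of B cells (thinned, 52.1% and 52.3% of cDC2 against 0.347% and 0.383% of B cells). Retnla macrophages came next, with 167 CPM (147 to 190) in Cd36-/- and 94.8 CPM (81.7 to 109) in fl/fl, and their intervals did not overlap. These were carried by 19.3% of Cd36-/- and 13.2% of fl/fl cells of that class, and its summed cDC2 markers, with all 9 detected, were at 864 CPM in Cd36-/- and 711 CPM in fl/fl. Their part in the Cd209a level was not tested. All other macrophage classes had 2.33 to 12.7 CPM in Cd36-/- and 2.65 to 15.4 CPM in fl/fl.

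Cd209d, a close relative that binds high-mannose and fucosylated sugars, was at 79.7 CPM (69.1 to 91.6) in Cd36-/- cDC2 and 73.3 CPM (65.2 to 82.1) in fl/fl cDC2. Retnla macrophages had 29.8 CPM in Cd36-/- and 15.1 CPM in fl/fl, and every other class had under 1 CPM in both. Clec10a, a receptor for galactose and N-acetylgalactosamine, was at 384 CPM (360 to 409) in Cd36-/- cDC2 and 381 CPM (362 to 400) in fl/fl cDC2. It was lower in Retnla macrophages (69.4 and 89.3 CPM) and lower still in the other macrophages, down to 16.2 CPM in Cd36-/- and 19.9 CPM in fl/fl LPM. Its 3′ end shares 21.8% of words with other genes, mostly Mgl2. Clec4b1, an activating receptor also called DCAR, was shared by Retnla macrophages (226 CPM, 202 to 252, in Cd36-/- and 181 CPM, 163 to 201, in fl/fl) and cDC2 (194 CPM, 177 to 212, and 205 CPM, 191 to 219). The intervals of these 2 classes overlapped in each library, so their order is not settled, and 27.3% of Clec4b1 words are shared, mostly with Clec4a2. The cDC2 class also held lymphocyte RNA, with 7 of 7 T cell markers summing to 332 CPM in Cd36-/- and 172 CPM in fl/fl and 7 of 7 B cell markers to 1236 and 1054 CPM.

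**Figure D3:**
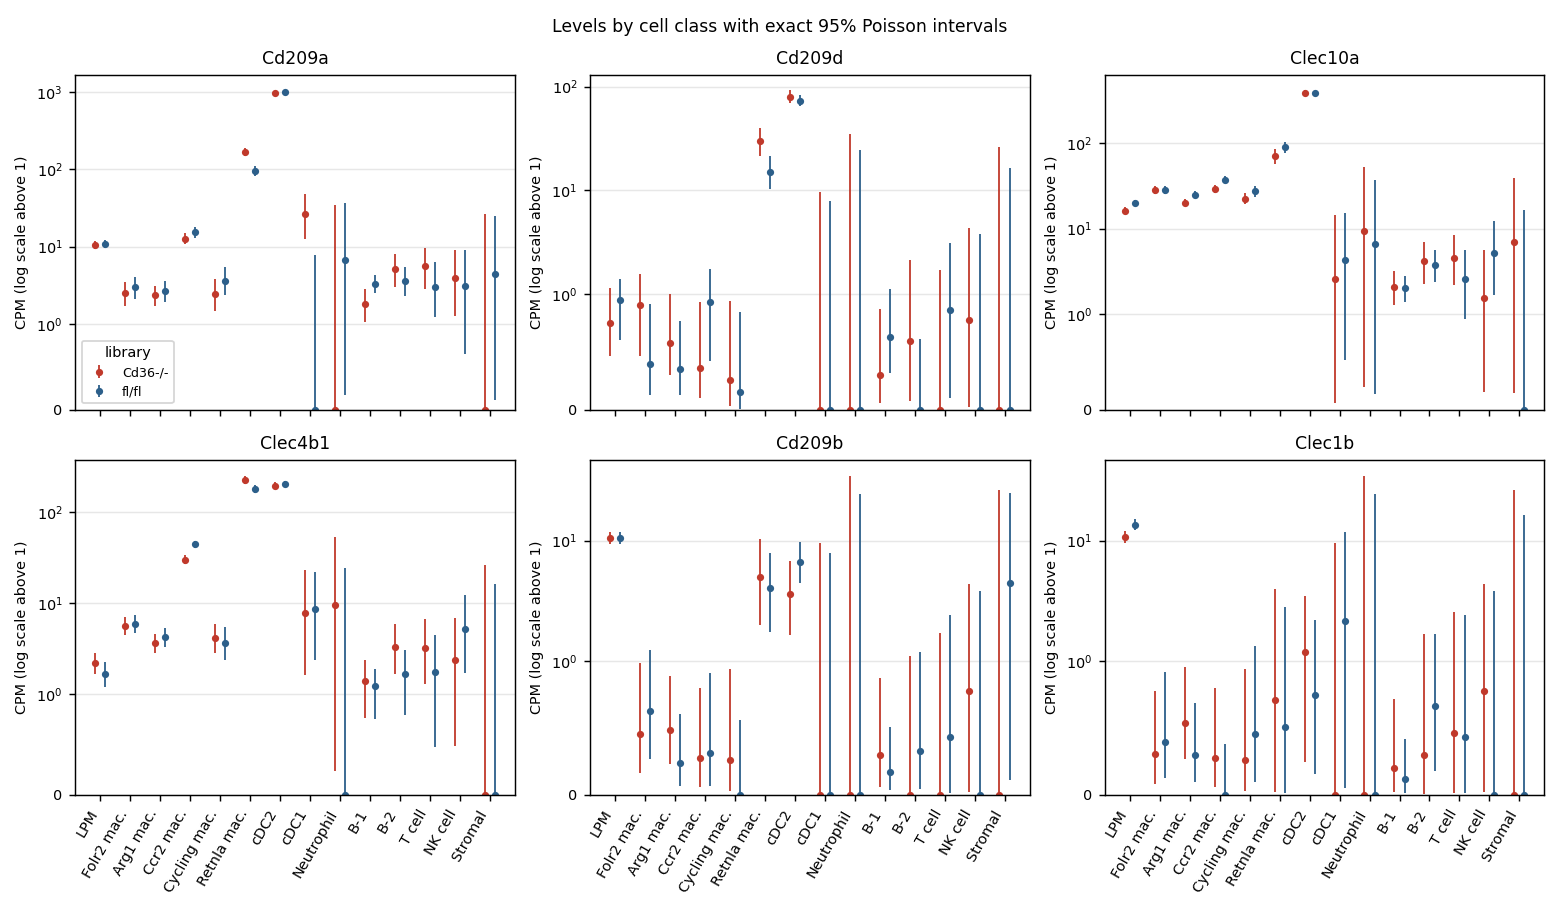
CPM (axis linear below 1 and logarithmic above) of Cd209a, Cd209d, Clec10a, Clec4b1, Cd209b and Clec1b by cell class, Cd36-/- in red on the left and fl/fl in blue on the right, with exact 95% Poisson intervals of 1 library each. Cd209a reaches 958 and 1012 CPM in cDC2, and Cd209b and Clec1b are at 10.5 to 13.6 CPM in LPM and below 7 CPM elsewhere.

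Cd209b (SIGNR1) and Clec1b (CLEC-2, the receptor for podoplanin, best known from platelets) stayed under 20 CPM but were highest in LPM in both libraries. Cd209b was at 10.6 CPM (9.43 to 11.9, 296 UMIs) in Cd36-/- LPM and 10.5 CPM (9.29 to 11.9, 266 UMIs) in fl/fl LPM. Folr2, Arg1, Ccr2 and cycling macrophages had 0.260 to 0.485 CPM of it in Cd36-/- and 0 to 0.627 CPM in fl/fl. Retnla macrophages had 4.96 CPM (7 UMIs) in Cd36-/- and 4.03 CPM (8 UMIs) in fl/fl, and cDC2 had 3.59 CPM (9 UMIs) and 6.71 CPM (27 UMIs). Clec1b was at 10.8 CPM (9.60 to 12.1, 301 UMIs) in Cd36-/- LPM and 13.6 CPM (12.2 to 15.1, 343 UMIs) in fl/fl LPM, and the other macrophage classes were under 1 CPM in both. Clec1b overlaps Clec9a on the same strand, and Clec9a itself was at 0.0716 and 0.0791 CPM in LPM. Clec2g, a relative of the Clec2 ligands, was also highest in LPM, at 11.6 CPM in Cd36-/- and 12 CPM in fl/fl, but reached 9.35 and 7.56 CPM in cycling macrophages, and 12.2% of its words are shared.

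Clec9a, the receptor of cDC1 for actin filaments of dead cells, was at 62.6 CPM (40.1 to 93.1, 24 UMIs) in Cd36-/- cDC1 and 61.9 CPM (41.4 to 88.9, 29 UMIs) in fl/fl cDC1. cDC2 had 3.19 and 3.23 CPM, and no Clec9a UMI was seen in T, NK, stromal cells or neutrophils of either library. Clec12a, the inhibitory receptor for uric acid crystals, was highest in cDC1 too, with 151 CPM (115 to 195) in Cd36-/- and 181 CPM (145 to 224) in fl/fl. Ccr2 macrophages followed at 89.2 CPM (83.7 to 95) in Cd36-/- and 84.7 CPM (79.0 to 90.7) in fl/fl, and LPM stood lowest of the macrophages at 12.1 and 8.90 CPM. Secreted members were found in stromal cells: Clec3b (tetranectin, which binds plasminogen) was at 70.8 CPM on 10 UMIs in Cd36-/- and 84.2 CPM on 19 UMIs in fl/fl, and Clec11a, a growth factor for bone-forming cells, at 14.2 CPM on 2 UMIs and 22.2 CPM on 5 UMIs. Stromal cells also had 4077 CPM of macrophage markers in Cd36-/- and 2038 CPM in fl/fl, and their Clec4d level was 84.9 and 53.2 CPM.

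Clec2d and Clec2i had their highest levels in lymphocytes. Clec2d (Clr-b), the ligand of Klrb1b, was at 132 CPM (117 to 148) in Cd36-/- and 123 CPM (109 to 139) in fl/fl T cells, and at 118 CPM (100 to 139) and 142 CPM (119 to 168) in NK cells. These intervals overlapped, so the order of T and NK cells is not settled in either library. B-2 cells had 104 CPM in Cd36-/- and 76.6 CPM in fl/fl, B-1 cells 65.3 and 67.5 CPM, cDC2 84.5 and 65.1 CPM, and all macrophages together 24.9 CPM in both. Clec2i (Clr-g), a ligand of Klrb1f, was highest in B-2 cells at 86.0 CPM (76.3 to 96.5) in Cd36-/- and 72.5 CPM (65.8 to 79.6) in fl/fl, with NK cells next at 73.3 CPM (94 UMIs) and 66.7 CPM (64 UMIs). The intervals of B-2 and NK cells overlapped in both libraries, so their order is not settled. Unlike Clec2d, Clec2i was lower in T cells (41.9 and 33.8 CPM) than in B-2 cells in both libraries. Clec2i overlaps BC035044 on the opposite strand, and how strand was used in the counting is not given in the sources used here. The receptors were found in NK cells, where Klrb1b was at 133 CPM in Cd36-/- and 162 CPM in fl/fl, and Klrb1f at 96.7 CPM in Cd36-/- and 132 CPM in fl/fl. Klrb1b was also seen in cDC2, at 55.0 CPM in Cd36-/- and 63.1 CPM in fl/fl.

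Of the remaining members below 20 CPM, cDC2 held the most of Clec4g (LSECtin), at 6.78 CPM on 17 UMIs in Cd36-/- and 11.9 CPM on 48 UMIs in fl/fl. Cd209c was at 7.18 CPM on 18 UMIs in Cd36-/- and 3.97 CPM on 16 UMIs in fl/fl cDC2, and Cd209e at 1.99 CPM in both. Cd209f was seen in Folr2 macrophages, with 18 UMIs in Cd36-/- and 7 in fl/fl, and 41.5% of its words are shared, mostly with Cd209g. Few cells carried them, 0.244% of Cd36-/- and 0.287% of fl/fl cells of that class. In Cd36-/- those 18 were all its UMIs in the library. Clec16a, an endosomal protein with a lectin name but no role as a receptor, was spread thinly, at 6.02 CPM in Cd36-/- and 6.78 CPM in fl/fl macrophages. Clec1a, Clec4a4, Clec12b, Clec14a, Clec2h, Clec2l and Cd209g had between 1 and 30 UMIs in either library.

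Between the genotypes, members that reached 20 CPM in at least 1 library were compared where a class had at least 200 cells in both. Ratios are given as the log2 of Cd36-/- over fl/fl. In macrophages as 1 class 9 members could be compared, and none was 2-fold or 1.5-fold apart, against a background of 0.131% of the 4597 genes compared at 2-fold and 0.674% at 1.5-fold. Of the 9, 7 were higher and 2 lower in Cd36-/-, where 46.7% of all genes compared were higher, and their median was 0.08 beside -0.01 over all genes. Clec2i was higher (24.5 CPM in Cd36-/-, 18.4 CPM in fl/fl, log2 ratio 0.41, interval 0.31 to 0.51), as was Clec12a (37.8 and 29.3 CPM, 0.37, 0.29 to 0.45). Clec2i reached 20 CPM in Cd36-/- alone, so it was compared only through the library where it was high. Clec10a was lower (22.4 and 27.3 CPM, -0.29, -0.38 to -0.20). With mitochondrial, ribosomal protein and lysozyme genes left out of the class total each macrophage ratio was lower by 0.04 and 6 of the 9 were higher, Clec4a3 being the one that crossed 0. The activating pair was nearly level between the libraries: Clec4d was at 0.05 (0.02 to 0.08) and Clec4e at 0.09 (0.04 to 0.13).

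Clec12a was the member farthest from an equal level in Folr2 and Arg1 macrophages; whether its ratio differs between classes was not tested. In Folr2 macrophages it was at 49.3 CPM (45.6 to 53.2) in Cd36-/- and 28.4 CPM (25.5 to 31.5) in fl/fl, 1.74-fold higher (log2 ratio 0.80, 0.61 to 0.99). It was the one of 9 members past 1.5-fold there, where 1.23% of 4714 genes were, and 0.276% were past 2-fold. In Arg1 macrophages it was at 37.6 CPM (35.0 to 40.4) in Cd36-/- and 22.7 CPM (20.5 to 25.1) in fl/fl, 1.66-fold higher (0.73, 0.55 to 0.91). There 2 of 9 members were past 1.5-fold, Clec12a and Clec2i, beside 1.07% of 4488 genes, and 0.178% of genes were past 2-fold. In Ccr2 macrophages, the macrophage class where the gene was highest, the ratio was 0.07 (-0.06 to 0.21), and in cycling macrophages -0.06 (-0.31 to 0.19). LPM had 12.1 CPM in Cd36-/- and 8.90 CPM in fl/fl, under the limit for comparison, with a ratio of 0.45 (0.20 to 0.70). At a finer clustering, chosen after the values were seen, 2 clusters named for Folr2 gave 0.84 (0.59 to 1.09) and 0.21 (-0.48 to 0.89), and 3 named for Arg1, which together held more cells than the Arg1 class, gave 0.41, 0.63 and 0.72. The cluster at 0.41 held 1241 Cd36-/- and 599 fl/fl cells. A finer cluster named for Ccr2, with 798 Cd36-/- and 717 fl/fl cells, gave 0.18 (0.03 to 0.34). The Ccr2 gene was at 270 CPM in Cd36-/- and 309 CPM in fl/fl Folr2 macrophages, and at 199 and 229 CPM in Arg1 macrophages. H2-Aa, an MHC class II gene at 6804 CPM in Cd36-/- and 7551 CPM in fl/fl Ccr2 macrophages, was at 1787 and 1723 CPM in Folr2 macrophages and at 1136 and 822 CPM in Arg1 macrophages (0.47, 0.44 to 0.50). The part of cells of other classes in the Clec12a difference was not tested. Summed cDC2 markers were at 226 and 218 CPM in the Folr2 class and 147 and 148 CPM in the Arg1 class.

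Clec2i was higher in Cd36-/- in all 9 of the finer classes where it was compared, with the interval above 0 in 6 of them. It was 1.55-fold higher in Arg1 macrophages (35.1 CPM in Cd36-/-, 22.5 CPM in fl/fl, log2 ratio 0.64, 0.46 to 0.82). In Ccr2 macrophages the ratio was 0.51 (0.28 to 0.74), in cycling macrophages 0.38 (0.09 to 0.67) and in Folr2 macrophages 0.30 (0.06 to 0.54). B-1 cells were at 58.9 CPM in Cd36-/- and 45.0 CPM in fl/fl (0.39, 0.23 to 0.55), and B-2 cells at 86.0 and 72.5 CPM (0.25, 0.03 to 0.46). T cells gave 0.31 (-0.14 to 0.77), NK cells 0.14 (-0.34 to 0.62) and cDC2 0.08 (-0.22 to 0.38), all with intervals that held 0. LPM, below the limit, was at -0.12 (-0.37 to 0.12).

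**Figure D4:**
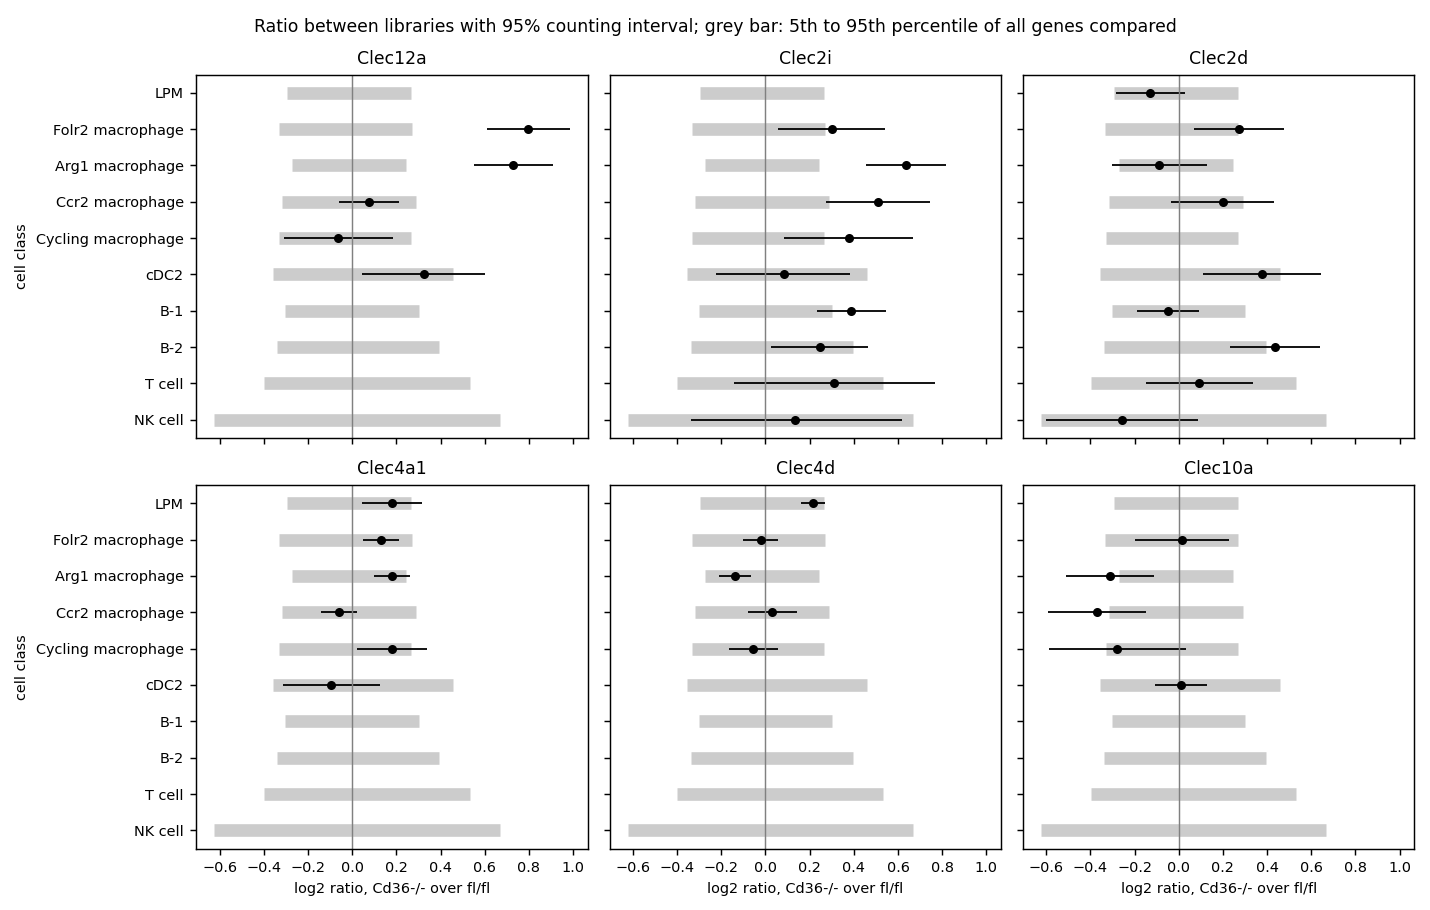
Log2 ratio of Cd36-/- over fl/fl for Clec12a, Clec2i, Clec2d, Clec4a1, Clec4d and Clec10a in the 10 finer classes compared; points are the ratio of 1 library to the other, bars the exact 95% counting interval, grey bars the 5th to 95th percentile of all genes compared in that class, and a gene below 20 CPM in both libraries has no point. Clec12a lies at 0.80 and 0.73 in Folr2 and Arg1 macrophages and at 0.07 in Ccr2 macrophages, and all 9 points of Clec2i lie above 0.

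In LPM 5 members were compared, 4 of them and 48.4% of all genes were higher (3 of the 5 with the other class total, which put Clec4e below 0), and none was 1.5-fold apart (background 0.901% of 4552 genes, and 0.154% at 2-fold). Clec4d was higher in Cd36-/- by 0.22 (0.16 to 0.27), Clec4a1 by 0.18 (0.04 to 0.32) and Clec4a3 by 0.10 (-0.02 to 0.22). Taken one by one after the values were seen, the 4 LPM clusters did not share the Clec4d difference. In 1 of them, with 1105 Cd36-/- and 744 fl/fl cells, Clec4d was at 321 CPM in Cd36-/- and 220 CPM in fl/fl (0.55, 0.44 to 0.65), and in the largest it was at 180 and 175 CPM (0.04, -0.04 to 0.11). The other 2 gave -0.01 and -0.15. Clec1b was lower in Cd36-/- LPM by the counts alone, with a ratio of -0.33 (-0.56 to -0.10), at -0.82 in the cluster where Clec4d was higher, -0.03 in the largest, and -1.16 and -0.03 in the other 2. Whether the clusters differ was not tested.

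In Folr2 macrophages the median over the 9 members was 0.27 beside -0.03 over all genes, and 8 of the 9 were higher in Cd36-/-, as were 43.6% of all genes (7 of the 9 with the other class total, which put Clec10a below 0). After Clec12a, Clec4a2 was at 91.0 CPM in Cd36-/- and 68.6 CPM in fl/fl (0.41, 0.28 to 0.54), and Clec4e at 108 and 85.4 CPM (0.34, 0.23 to 0.46). Arg1 macrophages had a median of 0.14 beside -0.01, with 5 members higher and 4 lower and 48.0% of all genes higher. Clec10a was lower there (20.2 CPM in Cd36-/-, 25 CPM in fl/fl, -0.31, -0.51 to -0.11). Ccr2 macrophages were evenly split, with 5 of 10 members (4 with the other class total) and 48.7% of all genes higher, none past 1.5-fold (1.83% of 4436 genes, and 0.383% past 2-fold) and a median of -0.01 beside -0.00. Clec4b1 was lower in them (29.97 CPM in Cd36-/-, 44.1 CPM in fl/fl, -0.56, -0.77 to -0.35), as was Clec10a (-0.37, -0.59 to -0.15). Both lay nearer an equal level in the finer cluster named for Ccr2, with Clec4b1 at -0.31 (-0.54 to -0.08) and Clec10a at -0.23 (-0.48 to 0.03). Cycling macrophages had 4 of 8 members and 46.6% of all genes higher, and no member past 1.5-fold (0.952% of 4937 genes, and 0.243% past 2-fold). After Clec2i, Clec4a1 was at 0.18 (0.02 to 0.34) and Clec10a at -0.28 (-0.59 to 0.03).

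In cDC2 5 of 10 members compared (4 with the other class total) and 58.3% of all genes were higher, with no member past 1.5-fold (3.69% of 4474 genes, and 0.715% past 2-fold) and a median of -0.03 beside 0.04. Cd209a, the most abundant member there, was within 0.08 of its fl/fl level on the log2 scale (-0.08, -0.15 to -0.01, but 0.05 with a marker gate on each cell in place of clusters), and Clec10a was at 0.01 (-0.11 to 0.13). Clec2d was higher by 0.38 (0.11 to 0.64) and Clec12a by 0.32 (0.04 to 0.60). Clec2d is also a lymphocyte transcript, and the T cell markers in cDC2 were at 332 CPM in Cd36-/- and 172 CPM in fl/fl. Their part in the Clec2d difference was not tested.

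B cells could be compared for Clec2i (0.33, 0.21 to 0.46) and Clec2d (0.10, -0.02 to 0.21), and neither of the 2 was past 1.5-fold (1.16% of 4152 genes, and 0.145% past 2-fold). Clec2d was higher in B-2 cells by 0.44 (0.23 to 0.64), with 1.99% of 4429 genes past 1.5-fold there and 0.203% past 2-fold. In B-1 cells its ratio was -0.05 (-0.19 to 0.09), with 1.33% of 4045 genes past 1.5-fold and 0.198% past 2-fold. For T cells the ratio of Clec2d was 0.09 (-0.15 to 0.34), and 5.55% of 4562 genes were past 1.5-fold and 0.636% past 2-fold. NK cells gave -0.26 (-0.60 to 0.09), in a class where 11.8% of 5167 genes were past 1.5-fold and 2.77% past 2-fold. Klrb1b, the receptor of Clec2d, was at -0.29 (-0.61 to 0.04) in NK cells. Klrb1f, the receptor of Clec2i, was at -0.45 (-0.82 to -0.09). Their relatives Klrb1a, at -0.33 (-0.68 to 0.03), and Klrb1c, at -0.16 (-0.35 to 0.04), also had intervals that held 0, as did Klrb1b.

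The genes around the receptors were compared in macrophages, where 46.7% of the 4597 genes compared were higher in Cd36-/-, 0.674% were past 1.5-fold and the median was -0.01. Of 20 genes of the Syk and Card9 route 12 could be compared, 5 higher and 7 lower in Cd36-/-, none past 1.5-fold, with a median of -0.08. Nfatc1, among the 7 lower, was at 18.5 CPM in Cd36-/- and 21.2 CPM in fl/fl, and reached 20 CPM in fl/fl alone. The shared adaptor Fcer1g was at 2262 CPM in Cd36-/- and 1977 CPM in fl/fl (0.19), and Tyrobp, the adaptor of Clec5a, at 4400 and 4063 CPM (0.12). The kinase Syk was at 80.5 and 102 CPM (-0.34) and Plcg2, a phospholipase it activates, at 37.6 and 45.1 CPM (-0.26). So the 2 adaptors were slightly higher and these 2 enzymes slightly lower. The inhibitory phosphatases and docking proteins gave 5 higher and 5 lower of 10 compared (median -0.07), from Dok3 and Dok1 at 0.11 each to Ptpn12 at -0.24 and the lipid phosphatase Inpp5d at -0.26.

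Of C-type lectins under other names, 1 was higher and 7 lower of 8 compared out of 30 listed, with a median of -0.14 beside -0.01 over all genes. Cd302 was at 221 CPM in Cd36-/- and 181 CPM in fl/fl (0.29), and the cargo receptor Lman1 came next at -0.05. Lowest were the mannose receptor Mrc1 at 30.3 and 38.7 CPM (-0.35) and thrombomodulin, Thbd, at 11.2 and 22.1 CPM (-0.98). Thbd was the one of the 8 past 1.5-fold, where 0.674% of all genes were. It reached 20 CPM in fl/fl alone, so it was compared only through the library where it was high. Binding partners and ligands of the members gave 6 higher and 2 lower of 8 compared (median 0.12), with Actb at 0.21 and Icam2 at 0.15 highest and Lcn2 (44.7 and 62.7 CPM, -0.49) and Trf (-0.05) lowest. With the other class total 4 of 12 genes of the Syk and Card9 route, 3 of 10 phosphatases and docking proteins, 1 of 8 other lectins and 5 of 8 partners were higher.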

How the data were processed

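Peritoneal cells of 2 pools of 4 replicates, Cd36-/- and fl/fl, were sequenced as 1 library each with 10x Genomics 3′ v2 chemistry, per the labels' protocols. As deposited, the counts are raw UMIs for each gene in each barcode; the file headers name software version 3.0.0, and the submitters' processing notes name Cell Ranger and mm10. There were 16543 Cd36-/- and 15537 fl/fl barcodes (116600732 and 117238057 UMIs, at least 500 per barcode), with 383 barcode sequences in both.

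Cells needed at least 200 genes (36 and 38 barcodes had fewer) and at most 10% mitochondrial UMIs (509 and 773 had more). Scrublet in scanpy 1.11.5 marked 1034 (6.46%) and 768 (5.21%) of the rest as doublets, and they were taken out. After scaling to 10000 per cell, 2000 variable genes and 40 principal components gave 22 clusters by Leiden clustering (leidenalg 0.10.2, resolution 1, 20 neighbours). The members, Clec7a and Clec4n took no part in this. The files give no cell type annotation, so cluster names were rebuilt here from marker lists and may differ from the study's. Clusters with 528 and 369 cells stayed unnamed.

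Counts were summed per class and library and divided by the class total. Intervals are exact Poisson for CPM, exact conditional binomial for ratios and Clopper-Pearson for shares. Classes of at least 50 cells over both libraries gave levels, and classes of at least 200 cells in each gave ratios. Values are named for every member at 20 CPM or more in a class, for the 3 members with the interval farthest from 0 per class compared, and for the 2 highest and 2 lowest genes of each list. The members and lists were chosen with earlier results of these data known, and some values below 20 CPM were named after they were seen. On simulated counts 100% of 3-fold changes were called 2-fold in macrophages (4465 genes) and 98.0% in NK cells (4824 genes). The simulation held counting error alone, so it cannot show how smaller differences or spread between animals would fare. Positions were taken from GENCODE M21 (31011 of 31053 gene IDs) and promoters from RefSeq. Protein sequences were not used here, nor were Clec7a and Clec4n analysed. Alternatives were other filters, doublets kept, resolution 2, a gate of at least 2 markers on each cell, another class total, free RNA subtracted, a limit of 5 CPM and thinning to 1000 UMIs per cell.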

Additional observations from a re-analysis of the deposited data

Results flagged for a closer look

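The ratio of Clec4a3 had opposite signs in macrophage classes, at 0.13 in Folr2 and 0.14 in Arg1 macrophages against -0.12 in Ccr2 macrophages (log2 of Cd36-/- over fl/fl), each with a counting interval that left out 0. The finer clusters did not all keep this. The cluster named for Ccr2 gave -0.06 (-0.17 to 0.05), and those named for Folr2 gave 0.08 (-0.07 to 0.23) and 0.06 (-0.45 to 0.56). Those named for Arg1 gave -0.03 (-0.17 to 0.10), 0.21 (0.07 to 0.35) and 0.16 (-0.01 to 0.33). Clec4d also had opposite signs, at 0.22 in LPM and -0.14 (-0.21 to -0.07) in Arg1 macrophages. With 1 library per genotype these differences between classes were not tested.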

How the results depend on the processing

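With a limit of 5 CPM in place of 20, the members counted as expressed were 23 in place of 16. Over macrophages, cDC2, B, T and NK cells together, 3 pairs of a member and a class were then at least 2-fold apart and 10 at least 1.5-fold, against 0 and 0. The 3 were Clec16a (3.90 CPM in Cd36-/-, 9.38 CPM in fl/fl), Clec4b1 (2.34 and 5.21 CPM) and Clec10a (1.56 and 5.21 CPM), all in NK cells on at most 9 UMIs. Each reached 5 CPM in fl/fl alone. The other alternatives gave 15 to 18 members expressed. Clec12a in macrophages lay between 0.32 and 0.39 and Clec2i between 0.37 and 0.44 under every alternative run. Of 25 ratios in these 5 classes, 23 to 25 stayed within their counting interval under each alternative. With a marker gate on each cell 5 of the 25 ratios changed sign. Cd209a in cDC2 was then at 0.05, Clec4a2 at 0.12 and Cd209d at -0.13, against 0.12 for Cd209d as reported. The others, Clec10a in cDC2 and Clec2d in macrophages, were near 0 both ways. With free RNA subtracted Cd209a in cDC2 was at -0.15. Without mitochondrial, ribosomal protein and lysozyme genes in the class total Clec4d in macrophages was at 0.01 and Clec4a1 at 0.04. The cause was not tested. Of 32 thinned levels 17 moved beyond their interval. No replicate could be left out with 1 library per genotype. No paired analysis was possible because each genotype has 1 library. With macrophages as 1 class and B cells as 1 class, the class with the highest level was the same in both libraries for 14 members. The exceptions were then Clec4a1, highest in neutrophils in Cd36-/- and in macrophages in fl/fl, and Clec2d. In these broader classes the count was 12 with at least 500 genes per cell, 13 at clustering resolution 2 and 15 with the gate. Depth limits neutrophils, at a median of 719 and 909 UMIs per cell, and cell number limits cDC1 (39 and 34 cells) and stromal cells (31 and 30).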
